A study of Mus musculus with 42 samples.

Results

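The epidermal growth factor (EGF) family was followed by 10 mouse genes, chosen by name: the ligands Areg, Ereg, Egf, Btc, Hbegf, Tgfa and Nrg1 and the receptors Egfr, Erbb2 and Erbb3. All 10 had a row in at least 1 of the 12 deposited tables, which together name 19227 features. The tables come from 42 bulk RNA-seq libraries. Goblet cells (Muc2-mCherry+) and stromal cells (tdTomato+ through Gli1-driven recombination) were sorted from proximal and distal colon on day 30 after tamoxifen, with 2 libraries in each group. The controls carried Gli1-CreERT2 alone (GWTM2 for goblet cells, GWTT for stromal cells), and the knockouts also carried floxed Smad4 (GS4M2, GS4T) or floxed Alk3 (GA3M2, GA3T). Every mouse, control or knockout, was 2 to 4 months old and received tamoxifen. Wild-type colonic organoids were left untreated or given 10 nM IL-1α plus IL-1β (IL1) or 10 nM IL-17A for 12 or 72 hours, with 3 libraries in each group. In the sorted mice the recombinase is driven by the Gli1 promoter, so goblet cells keep Smad4 and Alk3, and a tdTomato+ cell is one that expressed Gli1 at the time of tamoxifen or descends from such a cell. How many mice went into a library is not given, and p-values measure the spread between these libraries only, which may be technical.

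EGF family ligands are made as membrane-bound precursors that sheddases such as ADAM17 release. Areg, Ereg, Egf, Btc, Hbegf and Tgfa bind EGFR (ERBB1), Btc, Ereg and Hbegf also bind ERBB4, and neuregulins such as Nrg1 bind ERBB3 and ERBB4. ERBB2 has no known soluble ligand of its own and acts as the partner of the other receptors, while ERBB3 has little kinase activity and signals through its partner. In the gut these factors drive the growth of crypt cells and the repair of the epithelium. The organoid medium contained EGF, so every organoid library, controls included, came from cells given an EGFR ligand, whose activity was not measured here.

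Recovered read totals ran from 14221322 to 23686940 per library. The targeted genes had log2 fold changes of -1.09 proximal and -0.96 distal for Smad4 in GS4T stromal cells (the first called), and of -0.61 and -0.69 for Bmpr1a, which encodes ALK3, in GA3T stromal cells (neither called). The labels give the tissue of the tdTomato+ cells as epithelium, but 7 stromal markers led by collagen genes summed to 40399 to 57289 CPM (read counts scaled to the library total) in them and to at most 22.4 in the goblet libraries. In the organoids, 2 of the 3 control libraries deposited for 72 hours held the same reads as 2 of the 3 deposited for 12 hours, with 0 of 14733 genes differing, so that 4 distinct control libraries stand behind the 6 labels. Which time these 2 libraries were taken at cannot be told from the files.

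Areg, Ereg and Btc lie together on chromosome 5 (GRCm38), with Epgn, another EGFR ligand gene. Ereg spans chr5:91074622-91093646 (+), Areg chr5:91139599-91148432 (+) and Btc chr5:91357261-91402994 (-), with 45952 bases between Ereg and Areg and 208828 between Areg and Btc. RefSeq promoters (250 bases before to 50 after the start, GRCm38.p6) were found for 6 of the 10 genes, not for Ereg, Nrg1, Hbegf and Erbb3. Each was searched on both strands for the cyclic AMP response element TGACGTCA, for the AP-1 motif TGANTCA and for the NF-κB consensus, which 1.79%, 7.81% and 4.51% of 32851 promoters hold. Areg alone among the 6 held one, a TGACGTCA that begins 61 bases before the start, shown here in capitals at chr5:91139349-91139648 (+) because Areg was called in the same 4 knockout or cytokine comparisons as its neighbour Btc.
Areg: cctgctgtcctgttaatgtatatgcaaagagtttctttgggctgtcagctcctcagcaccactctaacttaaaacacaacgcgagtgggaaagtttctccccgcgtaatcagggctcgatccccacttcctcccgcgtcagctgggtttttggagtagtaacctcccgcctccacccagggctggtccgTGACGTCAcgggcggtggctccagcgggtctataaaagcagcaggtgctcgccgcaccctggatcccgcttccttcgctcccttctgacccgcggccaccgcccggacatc
Btc, Egf, Tgfa, Egfr and Erbb2 held none of the 3 motifs in this window. A match is a run of letters and not a measured site.

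Where is each member expressed in control tissue? In control stromal cells the highest level per length was that of Ereg, at 36.3 ± 18.9 RPKM (reads per kilobase of exon, scaled to the library total; SD, n = 4). Egfr followed at 11.3 ± 4.25, Areg at 8.85 ± 2.09 and Erbb2 at 8.60 ± 0.645, and the library ranges of these 3 overlapped, as did those of Ereg and Egfr. Nrg1 stood at 3.17 ± 1.36 RPKM and Btc, Hbegf and Erbb3 between 1.15 and 1.46, while Egf (0.195 to 0.301) and Tgfa (0.0660 to 0.562) were the lowest.

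In control goblet cells the order began with the receptors Erbb3 and Erbb2. Erbb3 had 53.0 ± 8.01 RPKM and Erbb2 29.4 ± 3.51 (SD, n = 4), and their library ranges did not overlap. Areg (17.8 ± 8.51) came next, with a range that overlapped that of Erbb2. Hbegf (11.1 ± 3.40), Tgfa (8.34 ± 0.525) and the receptor Egfr (7.06 ± 1.08) followed, and neighbouring ranges from Areg to Egfr overlapped. Ereg was last at 0.291 ± 0.216, and Nrg1 had no row in any goblet or organoid table. In the 4 distinct untreated organoid libraries Areg was first at 50.8 ± 10.5 RPKM, followed by Erbb3 at 38.5 ± 6.80 and Erbb2 at 36.0 ± 10.4, with overlapping ranges, and Egf was last at 0.150 ± 0.0537.

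**Figure D1:**
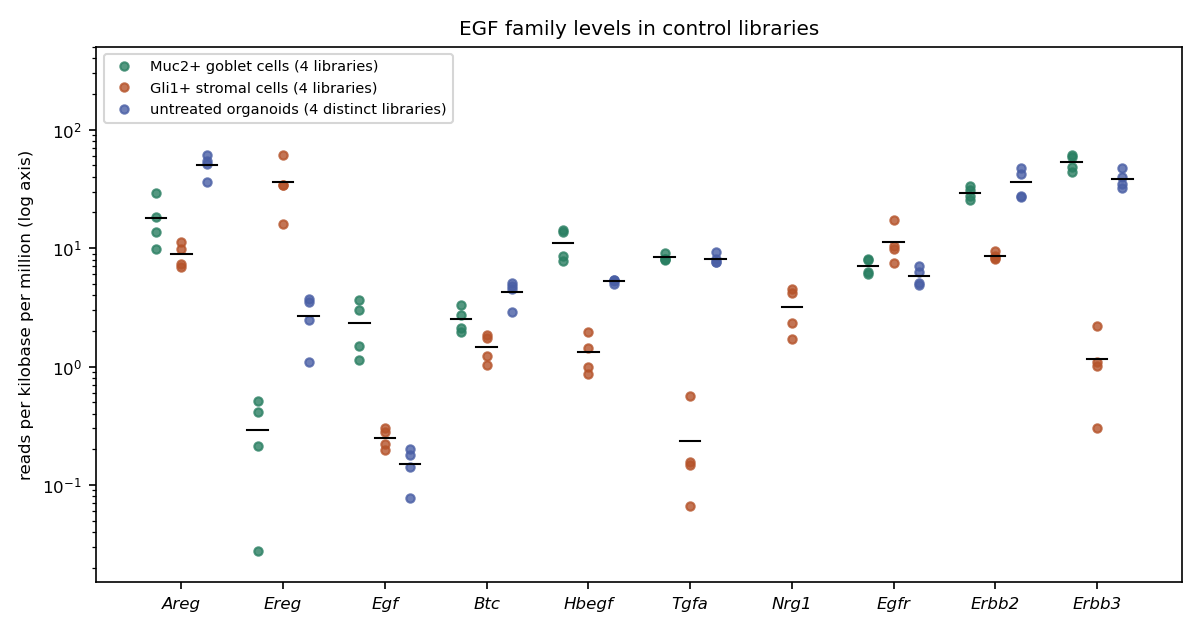
Level of each member in control libraries, in RPKM on a log axis; each point is 1 library and each bar the mean of 4. Ereg and Nrg1 stand out in stromal cells, and Hbegf and Egf in goblet cells. Erbb3 and Tgfa are low in stromal cells, and their goblet and organoid ranges overlap. Nrg1 has no goblet or organoid point.

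Goblet and stromal controls were compared by limma on log2(CPM + 1) over 8 libraries. A gene was called when its adjusted p was below 0.05 and its log2 fold change at least 1 in size. Of the 9 members tested, 6 were called, against 43.4% of the 12620 genes tested, 5 of them higher in goblet cells (25.5% of genes) and 1 lower (17.9%). Ereg was the lower one, with a log2 difference of -6.05 ± 0.32 (SE, adjusted p = 2.6e-06, limma), with 149.9 CPM in stromal and 1.20 in goblet controls, 125-fold apart. The higher ones were led by Erbb3 with a log2 difference of 5.54 ± 0.45 and Tgfa with 4.61 ± 0.34. Hbegf was higher by 2.90 ± 0.30, Egf by 2.71 ± 0.17 and Erbb2 by 1.74 ± 0.07 on the same scale. Areg (0.86), Btc (0.72) and Egfr (-0.61) missed the fold threshold with adjusted p of 0.037, 0.0015 and 0.032. Cell type cannot be told apart here from the reporter line and sort. Xist exceeded 100 CPM in 9 of 12 stromal and 2 of 12 goblet libraries, knockouts included, and was not counted for the 8 controls alone. Its part was not tested. Fewer cells of a type and less RNA per cell cannot be told apart in bulk libraries. Of 31 pathway genes tested, 4 were higher and 10 lower in goblet cells, led by the feedback inhibitor Spry4 (-3.36), Ier3 (-2.76), the AP-1 gene Junb (-2.47) and the ETS factor Etv4 (2.38). Between proximal and distal controls 0 members were called in either cell type by limma, and the background was 1.49% in goblet and 0.697% in stromal cells. On unadjusted p-values under 0.05 with the same fold threshold, as in each such count that follows, 1 member passed in goblet and 0 in stromal cells. That member was Egf, which in goblet cells was 1.29 ± 0.24 higher on the log2 scale in the proximal colon (adjusted p = 0.050).

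How did the loss of Smad4 in Gli1+ cells change the family in those cells? The 4 ligands Nrg1, Ereg, Btc and Areg rose in both segments of the colon, and Hbegf and Erbb3 also rose in the distal colon. In the proximal colon 4 of 10 members were called, all higher, where 9.61% of the 15319 genes tested were called and 5.25% were called higher. In the distal colon 6 of 10 were called, all higher, where 14% of 15262 genes were called and 7.88% were called higher. The median log2 fold change of the 10 members was 1.87 proximal and 1.52 distal, beside 0.02 and 0.00 over all genes tested. Without 1 library the proximal count ran from 0 (GS4T-Proximal replicate 1) and 1 (GS4T-Proximal replicate 2) to 7 (GWTT-Proximal replicate 2), and the distal count from 3 (GWTT-Distal replicate 1) to 5. Fits used limma on log2(normalized count + 1), which understates folds of low genes.

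Nrg1, the neuregulin, showed the widest change. Its normalized counts in the proximal colon were 405 and 295 in GWTT and 4439.5 and 1559.9 in GS4T. The groups did not overlap, and the GS4T libraries lay far apart. The log2 fold change was 2.92 ± 0.50 (adjusted p = 0.024, limma). In the distal colon the libraries were tight, with 708 and 753 in GWTT and 5429.8 and 6247 in GS4T. That is a log2 fold change of 2.99 ± 0.12 (adjusted p = 0.00040, limma), 7.97-fold on the log2(normalized count + 1) scale.

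Ereg, already the highest member in stromal cells, rose further. Proximal normalized counts were 2360.5 and 1084 in GWTT against 6420.4 and 11167 in GS4T, a log2 fold change of 2.40 ± 0.44 (adjusted p = 0.028, limma). Distal counts were 2297 and 4133.6 against 9009 and 7264, a log2 fold change of 1.39 ± 0.28 (adjusted p = 0.021). Neither segment had a knockout library within the control range.

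Btc, a ligand of EGFR and ERBB4, had a segment difference of -0.03 ± 0.34 on the log2 scale, uncalled. It had 93.1 and 77.9 normalized counts in proximal GWTT libraries and 268 and 413 in GS4T, a log2 fold change of 1.95 ± 0.29 (adjusted p = 0.017, limma). Distally it had 137 and 127 in GWTT and 492 and 561 in GS4T, a log2 fold change of 1.99 ± 0.18 (adjusted p = 0.0023). Both GS4T libraries of each segment lay above both of its control libraries.

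Areg, the neighbour of Ereg and Btc on the chromosome, had 203 and 149 normalized counts in proximal GWTT and 478 and 749.6 in GS4T, a log2 fold change of 1.78 ± 0.28 (adjusted p = 0.020, limma). Its distal values were 137 and 223 against 340.1 and 492, a log2 fold change of 1.22 ± 0.31 (adjusted p = 0.038). The groups were apart in both segments, and the distal controls were spread more widely than the proximal ones.

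Hbegf, whose product binds EGFR and ERBB4, was called in the distal colon only, and the difference between segments was not called. Its distal counts were 68.5 and 112 in GWTT and 303 and 331 in GS4T (log2 fold change 1.84 ± 0.30, adjusted p = 0.011, limma). Its proximal counts were 81.7 and 158 against 302 and 334 (1.47 ± 0.35, adjusted p = 0.050, just above the threshold). The knockout libraries lay close together at either site.

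Tgfa, an EGFR ligand, and Erbb3 were low in control stromal cells. Tgfa had 7.24 and 60.5 normalized counts in proximal GWTT and 95.9 and 112 in GS4T (2.22 ± 0.97, adjusted p = 0.18, limma), so that 1 control library set most of the spread. Distal Tgfa had 16.6 and 15.5 against 34.5 and 107 (1.86 ± 0.63, adjusted p = 0.085). Erbb3 showed the same low control library, with 31.0 and 219 in proximal GWTT and 488 and 638 in GS4T (2.73 ± 0.89, adjusted p = 0.10). Distally Erbb3 had 108 and 97.8 against 219 and 484 (1.66 ± 0.39, adjusted p = 0.032). Egfr (-0.00 and 0.58), Erbb2 (0.42 and 0.13) and Egf (0.15 and -0.30) were not called in either segment. For 8 of the 10 members the groups did not overlap in the proximal colon, all higher, and likewise for 8 in the distal colon, against 34% and 34.4% of genes. The members differed: Erbb2 was apart in the proximal colon and Egfr in the distal colon, each overlapping in the other segment.

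**Figure D2:**
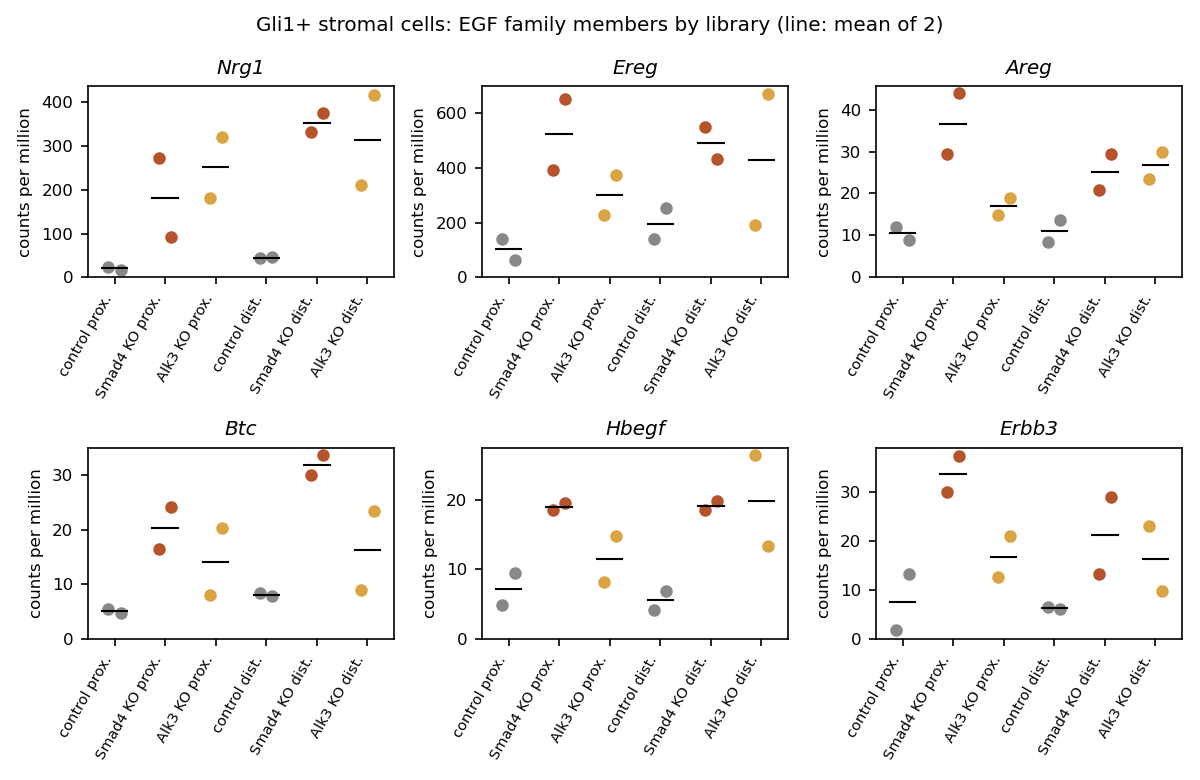
CPM of 6 members in the 12 Gli1+ stromal libraries; each point is 1 library and each line the mean of 2. Each Smad4 knockout point lies above the control points of its segment in these 6 panels, while Alk3 knockout points of Ereg, Hbegf and Erbb3 reach into the control range in 1 segment.

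Did Alk3 loss give the same picture? The GA3T comparisons use the same control libraries as the GS4T comparisons, so their values are set side by side and not tested against each other. Nrg1 was the only member called, in the proximal colon, where 1 of 10 members and 0.358% of 15346 genes were called (0.345% higher). It had 426 and 310.3 normalized counts in GWTT and 3256.5 and 5625.5 in GA3T (log2 fold change 3.55 ± 0.31, adjusted p = 0.049, limma), beside 2.92 in GS4T. In the distal colon it had 808 and 857 against 3757 and 8031 (2.72 ± 0.35, adjusted p = 0.087), beside 2.99 in GS4T. In all 8 knockout libraries of either gene, Nrg1 lay above every control library of its segment. The proximal GA3T call did not hold with edgeR (adjusted p = 0.062), which called 0% of genes there. It was also lost without GWTT-Proximal replicate 1, GWTT-Proximal replicate 2 or GA3T-Proximal replicate 2. The log2 fold changes of Nrg1 were then 3.78, 3.32 and 3.16, in fits with 1 library in a group.

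In the distal GA3T comparison 0 of 10 members were called by limma or edgeR, as were 0% of 15414 genes. On unadjusted p-values, 5 members passed beside 7.77% of all genes, and DESeq2 called 4 beside 5.03%. The groups did not overlap for 7 of 10, as for 54.3% of genes. Hbegf had 78.1 and 128 normalized counts in GWTT and 470.5 and 258 in GA3T (1.79 ± 0.39, adjusted p = 0.14, limma). Areg had 156 and 253 against 417 and 577 (1.30 ± 0.30, adjusted p = 0.15), and Tgfa 19.0 and 17.6 against 76.7 and 42.5 (1.59 ± 0.49, adjusted p = 0.20). Erbb3 had 123 and 111 against 409 and 188 (1.24 ± 0.40, adjusted p = 0.21). In these 4 both knockout libraries stood above both controls.

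In the proximal colon 5 of 10 members had GA3T groups apart and higher, as for 28.8% of genes. Ereg had 2483.6 and 1139.9 in GWTT and 4115 and 6553.8 in GA3T (1.63 ± 0.43, adjusted p = 0.14, limma), and Btc 97.9 and 81.9 against 144 and 355 (1.33 ± 0.47, adjusted p = 0.21). Proximal Areg had a log2 fold change of 0.71 and proximal Hbegf of 0.70, both uncalled. In the distal colon Ereg (0.92) and Btc (0.84) were uncalled, with 1 of the GA3T libraries near the controls for each. Egf was the only member lower in every distal GA3T library, with -0.92 ± 0.41 on the log2 scale and an adjusted p of 0.31 (limma). The segment difference of the effect was called for 0 of 10 members in GS4T (0.189% of genes) and 0 in GA3T (0% of genes), by limma, by edgeR and on unadjusted p-values with the fold threshold.

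**Figure D3:**
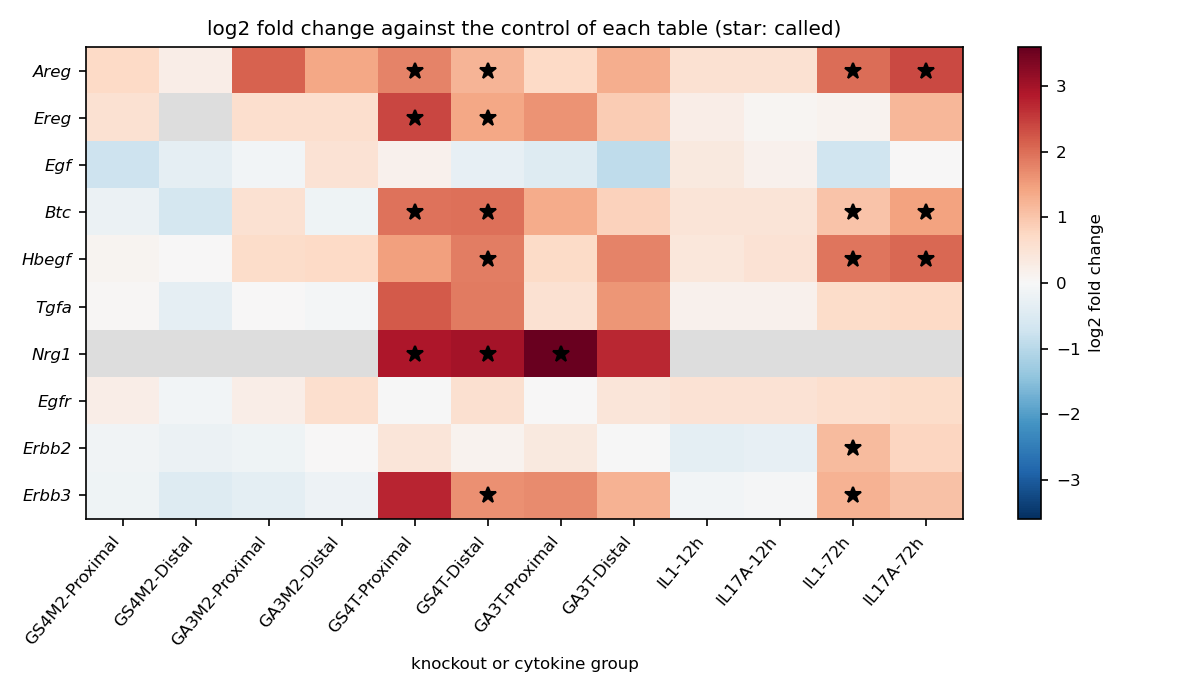
Log2 fold change of each member (rows) in each knockout or cytokine group (columns) against the control of the same table; stars mark calls and grey marks a member without a tested row. Stars fall in the stromal Smad4 columns, in Nrg1 of the proximal stromal Alk3 column and in the 72 hour columns.

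Markers of other cell types moved with these results. All 8 other-epithelium markers (Epcam, Krt8, Krt20 and others) had counts in every stromal library, and the sum includes Dclk1, which the stromal cells held at 65.6 to 111.8 CPM. By this sum, the stromal libraries held 122 to 907 CPM in proximal GWTT and 160.1 to 274 in distal GWTT. They held 1156 to 1326 in proximal and 608 to 1133 in distal GS4T, and 663 to 776 and 409 to 883 in the GA3T groups. Control goblet cells, sorted as epithelium, held 6805 to 12203 of the same markers and 319 CPM of Erbb3, 54.1 of Tgfa and 53.7 of Hbegf. Erbb3 in stromal cells ran from 1.83 CPM in the control library with the lowest marker sum to 37.3 in the GS4T library with the highest. Areg was at 21.6 CPM in goblet controls and 36.6 CPM in proximal GS4T stromal cells. Ereg was at 1.20 CPM in the goblet controls, and Nrg1 had no row in the goblet tables.

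Macrophage markers differed too. Summed over 8 genes (Adgre1, Csf1r, Cd68, Lyz2 and others, all with counts in every stromal library), they ran from 173 to 283 CPM in proximal GWTT and from 575 to 682 in distal GWTT. The GS4T libraries held 870.1 to 1515 proximal and 1126 to 2048 distal, and the GA3T libraries 752 to 1377 and 692 to 983. Neutrophil markers, 6 genes that include S100a8 and S100a9, were 2.08 to 6.49 in GWTT, 67.0 to 226 in GS4T and 13.5 to 48.9 in GA3T, with Ly6g or Cxcr2 at 0 in some libraries. The sum of the plasma cell markers (Jchain, Mzb1 and Sdc1) was lower in the knockouts. It was 1595 to 2845 CPM in proximal GWTT and 3604 to 4940.4 in distal GWTT, against 975 to 1289 and 867 to 1391 in GS4T and 1055 to 1225 and 2046 to 2370.1 in GA3T. Within the sum Jchain was lower, at 107 to 804 CPM in GS4T against 1534 to 4705 in GWTT, while Sdc1 was higher, at 468 to 949 against 41.0 to 152. The 4 smooth muscle markers were at 307 to 415 in proximal GWTT, 797 to 1084 in proximal GS4T and 671 to 999 in proximal GA3T, while distal GWTT held 904 to 939, distal GS4T 803 to 1343 and distal GA3T 944 to 1058. Most of the GS4T sum was Acta2, at 569.6 to 1025 CPM. The part of RNA from any of these cells in the member results was not tested.

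**Figure D4:**
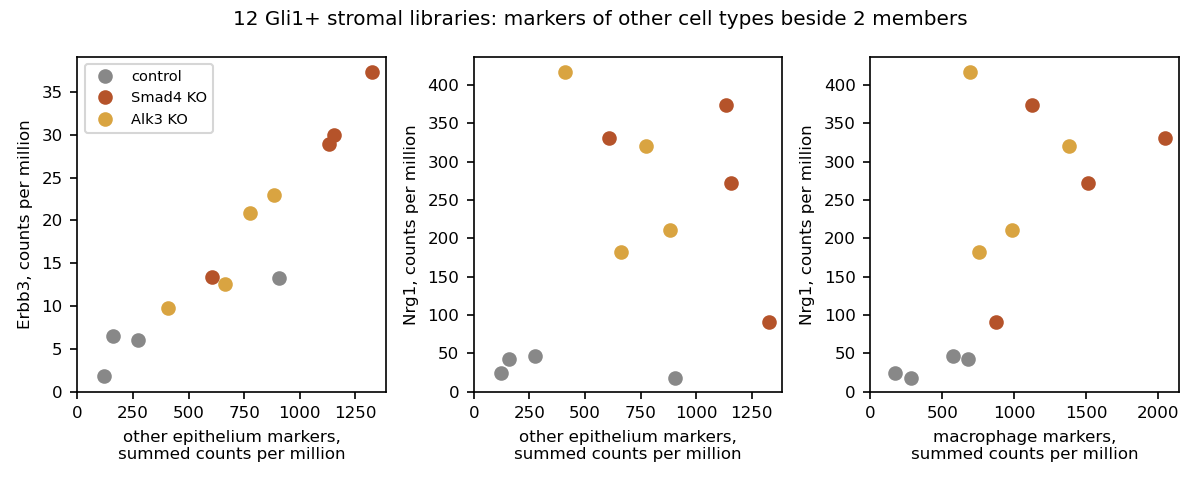
CPM of Erbb3 and Nrg1 (vertical) against the summed CPM of epithelial markers, and of Nrg1 against macrophage markers, with 1 point for each of the 12 stromal libraries. Erbb3 rises along the epithelial axis. Nrg1 is 17.8 to 46.4 in the 4 controls and 91.2 or more in the 8 knockout libraries. Macrophage sums also lie apart, at 173 to 682 in the controls and 692 to 2048 in the knockouts. The epithelial sum of 1 control, 907, lies within the knockout range. The part of either cell type in Nrg1 was not tested.

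Over these 12 libraries, the genes with the most similar pattern were looked up for the 3 members with the widest range. For Nrg1 they were Pdgfra (r = 0.98), Matn4 (0.98) and Nid2 (0.97) among 14433 genes. Btc ran with Ctps (0.98), Slc1a4 (0.98) and Kirrel (0.97), and Erbb3 with Acads (0.99), Tjp3 (0.98) and Akr1c12 (0.98). These Pearson values are descriptions over 12 libraries that share tissue, sort and control groups.

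Around the family, 35 further genes of the pathway were counted. In proximal GS4T stromal cells 33 were tested, of which 2 rose, 6 fell and 25 were not called, where 9.61% of all genes were called and 5.25% called higher. Etv4, an ETS factor induced by the pathway, rose by 3.42 ± 0.31 on the log2 scale, and Rhbdf2, which encodes an iRhom that matures ADAM17, by 1.65 ± 0.22. Etv4 was also called higher in goblet than in stromal controls, and epithelial marker sums were higher in GS4T than in GWTT stromal cells. The part of epithelial RNA in the Etv4 values was not tested. Nrg2, another neuregulin, fell by 2.17 and the immediate early gene Egr1 fell by 1.78. In distal GS4T cells 2 rose, 5 fell and 26 were not called, beside 14% and 7.88% of all genes, with Etv4 at 3.17, Rhbdf2 at 2.01, Nrg2 at -3.61 and Spry1, a feedback inhibitor, at -1.61. The pathway list had a median log2 fold change of -0.02 proximal and 0.06 distal. In the GA3T comparisons 0 of 32 were called by limma, and on unadjusted p-values 2 passed higher and 3 lower proximally, where 9.46% of all genes passed, and 2 higher and 2 lower distally, where 7.77% passed. Nrg2 had log2 fold changes of -1.56 and -1.15 there, uncalled, so that the signs of Nrg1 and Nrg2 were opposite in all 4 stromal comparisons.

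What happened in goblet cells, which kept Smad4 and Alk3 themselves? In the 4 goblet comparisons 0 members were called by limma or edgeR, where 0.325% and 0% of genes were called in proximal and distal GS4M2, and 0.0899% and 0% in proximal and distal GA3M2. On unadjusted p-values the counts were 0 and 0 in GS4M2 (4.28% and 2.7% of genes) and 1 and 1 in GA3M2 (6.83% and 4.12%). DESeq2 gave the same counts, beside 2.04% and 1.12% of genes in GS4M2 and 3.23% and 1.83% in GA3M2. The 1 member was Areg in both GA3M2 cases. The segment difference was called for 0 members in GS4M2 and 0 in GA3M2 (0% of genes in each), by limma, by edgeR and on unadjusted p-values with the fold threshold.

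Areg had 402 and 217 normalized counts in proximal GWTM2 and 917 and 1782 in GA3M2, that is 2.11 ± 0.41 on the log2 scale (adjusted p = 0.15, limma). In the distal colon it had 607 and 288 against 1055 and 1150.2, a log2 fold change of 1.39 ± 0.36 (adjusted p = 0.32). The groups did not overlap in either segment. Such separation was found for 4 of 9 members in each GA3M2 comparison, as for 52.1% of genes proximal and 44.2% distal. Muc2, whose reporter was sorted on, fell by 3.63 on the log2 scale in proximal GA3M2 cells (adjusted p = 0.046, limma). In the GA3M2 libraries the sums of 8 goblet markers were 10025 to 24447 CPM against 30909 to 63137 in GWTM2, and those of the macrophage markers 32.1 to 41.6 against 7.19 to 15.5. Only 3 to 7 of the 8 macrophage genes and 0 to 5 of the 7 stromal genes had a row in a given goblet library. The neutrophil markers summed to 19.8 to 82.1 CPM in proximal and 73.0 to 125 in distal GA3M2, against 0.38 to 1.06 and 7.94 to 9.01 in GWTM2. Most of that sum was Ly6g, at 18.5 to 120.2 CPM in GA3M2, where S100a8 was at 0.53 to 2.70 and Csf3r, Cxcr2 and Retnlg had no row. The stromal markers were at 4.35 to 22.4 in proximal GA3M2 against 0.25 to 0.40 in its control. Their part in the Areg values was not tested.

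The other goblet values were small. In GS4M2 the log2 fold changes of the members ran from -0.74 (Egf, proximal) to 0.71 (Areg, proximal), and the groups were apart for 2 of 9 members proximal (50.2% of genes) and 4 of 8 distal (45.7%), all lower. Proximal Egf had 581 and 710.3 normalized counts in GWTM2 and 466 and 318 in GS4M2 (adjusted p = 0.19, limma). In GA3M2 the log2 fold change of Hbegf was 0.67 proximal and 0.70 distal and that of Egfr 0.59 distal, all uncalled. Ereg did not reach a mean of 10 normalized counts in the distal GS4M2 table and was not tested there. In the proximal GS4M2 comparison, the column names of the table and the headings of the study's own copy name the groups in opposite order. The deposited names are used here, under which its GWTM2 libraries hold the same reads as in the GA3M2 table, and the other order would turn the sign of each fold of that comparison. Of the pathway list 0 of 31 or 32 genes were called in any goblet comparison by limma. On unadjusted p-values, 1 passed in proximal and 0 in distal GS4M2, and 3 and 1 in GA3M2.

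Did IL-1 or IL-17A change the family in epithelium grown without stroma? After 12 hours 0 of 9 members were called with either cytokine, by limma, edgeR, DESeq2 or on unadjusted p-values. By limma 0.0542% (IL1) and 0.0385% (IL-17A) of genes were called, by DESeq2 0.333% and 0.393%, and on unadjusted p-values 0.922% and 1.08%. Hbegf was the 1 member whose groups did not overlap, as for 5.3% and 5.91% of genes in that direction. It had 423, 418 and 392 normalized counts in controls and 544, 511 and 577 with IL1 (log2 fold change 0.40 ± 0.11, adjusted p = 0.89, limma). In the IL-17A table, which scales the same control libraries to 444, 438 and 410.0, IL-17A gave 593, 662 and 612 (0.53 ± 0.11, adjusted p = 0.46). Nfkbia, a target of NF-κB and the check on the cytokines, rose by 1.20 on the log2 scale with IL1 at this time and had 0.66 with IL-17A, uncalled.

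After 72 hours 5 of 9 members had risen with IL1 and 3 with IL-17A, and none had fallen. The background was 23% of 13023 genes for IL1, with 10.9% called higher, and 7.94% of 13073 for IL-17A, with 5.02% called higher. The groups did not overlap for 7 of 9 members with each cytokine, all higher, as for 27% (IL1) and 21.7% (IL-17A) of genes. Areg, Hbegf and Btc were called with both cytokines, and Erbb2 and Erbb3 with IL1. Both comparisons share their 3 control libraries, of which 2 are also deposited as 12 hour controls, and each table scales them on its own. The 8 other-epithelium markers summed to 6975 to 9871 CPM in these controls, 10820.0 to 13690 with IL1 and 9619 to 12420.4 with IL-17A. Of the 6 neutrophil genes only Ly6g had rows in these tables, with 133 to 152 CPM in controls, 486 to 701.4 with IL1 and 255 to 774 with IL-17A, and of the 3 plasma cell genes only Sdc1, with 260.4 to 384, 557 to 684 and 401 to 651. S100a8, S100a9 and Jchain had no row. Their part in the results was not tested.

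Areg had 935, 1005 and 1098 normalized counts in 72 hour controls. With IL1 it had 8987, 2219 and 3367.5 (log2 fold change 2.01 ± 0.45, adjusted p = 0.012, limma) and with IL-17A 7884.5, 4583 and 4065 (2.39 ± 0.26, adjusted p = 0.021), against controls of 933, 999 and 1096 in that table. Every treated library was above every control, and 1 IL1 library was far above the other two. In IL1 replicate 1 and IL-17A replicate 1, the libraries with the highest Areg of each group, the 8 goblet markers summed to 2449 and 2431.5 CPM, against 7124 to 7882 in the 72 hour controls and 8508 to 10814 in the other treated libraries. The part of goblet RNA was not tested. Without IL1 replicate 1 Areg had a log2 fold change of 1.43 (adjusted p = 0.0089, limma), and without IL-17A replicate 1 of 2.10 (adjusted p = 0.058). Hbegf had 396, 360.1 and 376 in controls, against 1871, 1125 and 1435 with IL1 (1.94 ± 0.20, adjusted p = 0.0025). With IL-17A it had 1733, 1114 and 2022 against 396, 358 and 375 (2.06 ± 0.24, adjusted p = 0.022).

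Btc rose less, from 325, 308 and 339 normalized counts to 1087, 485 and 539 with IL1 (1.02 ± 0.30, adjusted p = 0.031, limma) and from 324, 306 and 338.5 to 1072, 1123 and 566 with IL-17A (1.45 ± 0.28, adjusted p = 0.040). Tgfa stayed under the fold threshold, at log2 fold changes of 0.66 and 0.73, with groups apart. Ereg, the highest member in stromal cells, had 231, 152 and 213 in controls and 302, 909.9 and 324 with IL-17A (1.19 ± 0.45, adjusted p = 0.10), where 1 library was far above the others. With IL1 its log2 fold change was 0.13.

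Of the receptors, Erbb3 had 4315, 2908 and 3094 normalized counts in controls and 7047.5, 7355 and 9991 with IL1 (1.25 ± 0.21, adjusted p = 0.0048, limma). With IL-17A it had 6380.4, 4798 and 11513 against 4306, 2891 and 3088 (1.07 ± 0.34, adjusted p = 0.072). Erbb2 had 3718, 2108 and 2127 in controls and 3974, 5644 and 7732 with IL1 (1.13 ± 0.30, adjusted p = 0.022), so that the lowest treated library was close to the highest control. Egfr had log2 fold changes of 0.60 with IL1 and 0.65 with IL-17A, under the fold threshold.

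The IL-17A calls, of members as of all genes, depended on single libraries. None of the 3 remained when Control replicate 2, Control replicate 4 or IL-17A replicate 1 was left out. Over all genes the calls then fell from 7.94% to 0.0306%, 0.0229% and 0.0229%. With IL1 3 remained without Control replicate 2 (16.6% of genes) or without Control replicate 4 (17.0%), where the full fit called 23.0%. Only 1 control library is not also a 12 hour control. A fit against it alone has no spread among controls, so the calls could not be checked against it and only effect sizes are given. That library, Control replicate 2, and Control replicate 4 were closer to each other than most replicates, with a chi-square per gene of 3.43 where the other pairs of 72 hour controls had 70.0 and 74.9, and so were replicates 3 and 4 of each cytokine at 12 hours (3.12 and 3.46). These values are above sampling noise. Averaging each such pair left 3 members called with IL1 and 0 with IL-17A at 72 hours, beside 16.8% and 0.0153% of genes. With the shared controls left out, the log2 fold changes were 2.01 for Areg and 1.47 for Erbb3 with IL1, and 2.40 for Areg and 2.13 for Hbegf with IL-17A.

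**Figure D5:**
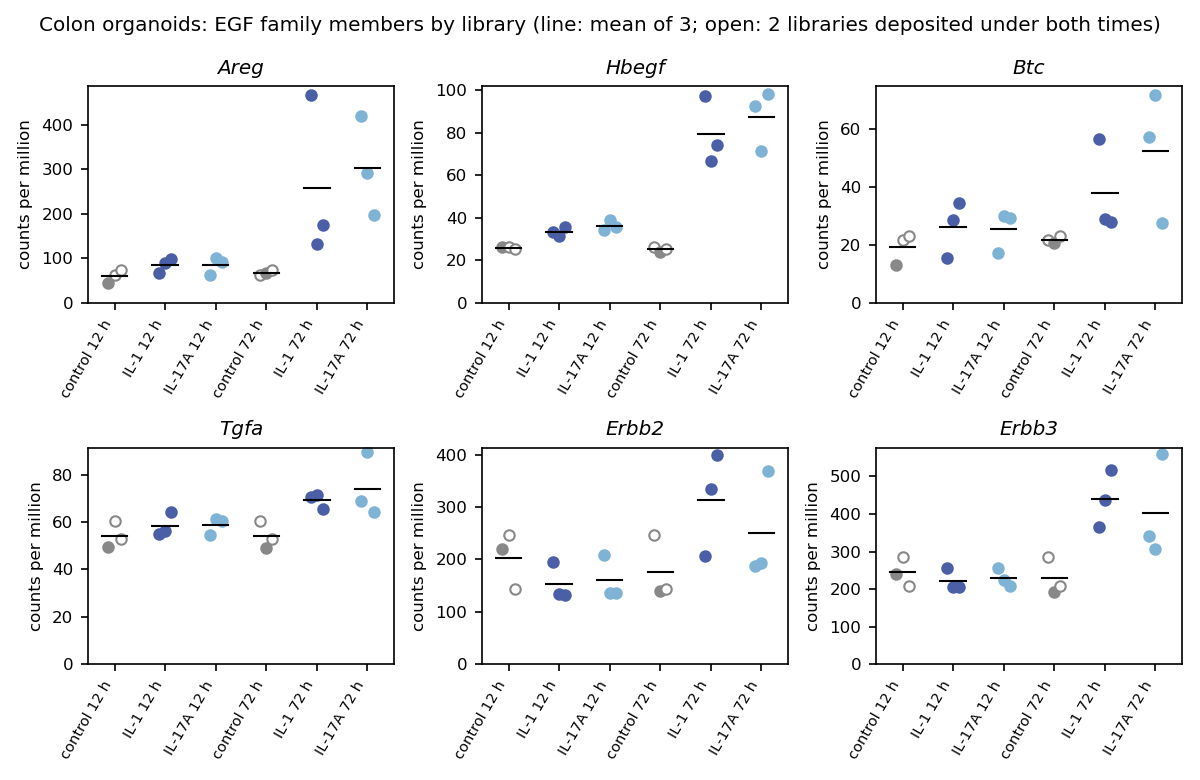
CPM of 6 members in the organoid libraries, 1 point per library with the mean of 3 as a line; open points are the 2 control libraries deposited under both times. Areg, Hbegf and Btc separate from the controls at 72 hours. At 12 hours Areg and Btc overlap with the controls, while Hbegf lies above them by less than at 72 hours.

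Because of the shared controls, the change of the effect between 12 and 72 hours rests on fewer libraries than the labels give. Fitted by label, the IL1 effect differed between times for Hbegf (1.53 ± 0.23), Erbb3 (1.34 ± 0.28) and Erbb2 (1.47 ± 0.44), 3 of 9 members beside 17.4% of genes. With each control library entered once, 1 control library remained at 1 of the times, so only effect sizes are given. Not all of the calls by label were kept in these fits. With the shared libraries as 12 hour controls, the IL1 differences were 1.60 for Hbegf, 1.56 for Erbb3 and 1.75 for Erbb2. With them as 72 hour controls, the differences were 1.57, 1.35 and 1.65. The IL-17A difference was called for 0 members by label and 0 by edgeR, each beside 0.0384% of genes. On unadjusted p-values 3 passed by label, with Areg at 1.84 and Hbegf at 1.53.

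Of the pathway list, 10 of 32 genes rose and 3 fell with IL1 at 72 hours and 19 were not called, where 23% of all genes were called and 10.9% called higher. The changes were led by Epgn (2.54 ± 0.54), Junb (2.20 ± 0.18), the phosphatase gene Dusp5 (1.90) and Ier3 (1.83). With IL-17A 7 of 32 rose, 1 fell and 24 were not called, beside 7.94% and 5.02% of all genes, led by Epgn (3.10 ± 0.73), Ier3 (2.22 ± 0.35), Dusp4 (2.15 ± 0.22) and Junb (1.92). Epgn is the EGFR ligand gene on the far side of Ereg from Areg. Etv4, singled out after its values were seen, rose in Smad4-deleted stromal cells and fell in the organoids by 1.64 with IL1 and 1.78 with IL-17A on the log2 scale. After 12 hours 0 of 31 were called with either cytokine by limma, and 0 on unadjusted p-values.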

How the data were processed

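RNA-seq reads were mapped uniquely to mm10 by the authors with STAR (version 2.5.3) and normalized with DESeq2 (version 1.28.1). The deposited values are normalized counts per gene, a size-factor-scaled signal, with any row filter not given in the sources used here. Of the values, 100% came out whole (within 0.1) in units of 1 read's worth, which gave back the reads, between 14221322 and 23686940 per library. Rows without a gene name, up to 28.2% of a library's values in the GS4M2 tables, were left out. Each table was fitted with limma (version 3.58.1, R version 4.3.3) on log2(normalized count + 1) for genes with a mean of at least 10. A call needs a Benjamini-Hochberg adjusted p under 0.05, taken over all genes, and a log2 fold change of 1 or more in size. The fit was tested on simulated data. Goblet and stromal controls were compared on log2(CPM + 1). Levels per length used exon lengths of GENCODE M21. edgeR (version 4.0.16) and DESeq2 (version 1.42.0) on the recovered reads, other pseudocounts, no filter, the replicate block and libraries left out were alternatives. Averaging near-identical organoid libraries, leaving out the controls deposited under both times and counting those controls once were chosen after seeing the data. On the recovered reads edgeR called from 0 to 2971 genes per table. The members and lists were chosen with earlier results of these data known. All 10 members are named, with full values for called members and for those with groups apart and a fold past the threshold. Pathway genes are named where called, up to 4 per comparison by size. The 42 deposited libraries are 40 distinct ones, as 2 organoid controls are deposited under both times.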

Additional observations from a re-analysis of the deposited data

How the results depend on the processing

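Of 1480 member values under alternatives, 58 called values lost the call and 46 uncalled ones gained it. Another sign was found for 67 values uncalled in both fits and for 0 called ones. A call needs a log2 fold change of at least 1 in size, so few called values could turn in refits of the same libraries. Counts of called members changed as follows. The share of all genes called is in brackets. In GA3M2, where 0 were called, DESeq2 gave 1 proximal (3.23%) and 1 distal (1.83%), and the unadjusted p 1 (6.83%) and 1 (4.12%). In proximal GS4T (4 called), a pseudocount of 10 gave 5 (10.8%), DESeq2 5 (13.1%) and the unadjusted p 6 (16.0%). In distal GS4T (6 called) DESeq2 gave 7 (15.8%) and the unadjusted p 7 (18.5%). In proximal GA3T (1 called), a pseudocount of 0.1 gave 0 (0.0391%), edgeR 0 (0%), DESeq2 2 (6.31%) and the unadjusted p 3 (9.46%). In distal GA3T (0 called), DESeq2 gave 4 (5.03%) and the unadjusted p 5 (7.77%). For IL-17A at 72 hours (3 called), DESeq2 gave 5 (17.7%) and the unadjusted p 5 (20.6%). Averaging near-identical libraries gave 3 for IL1 at 72 hours (16.8% of genes) and 0 for IL-17A (0.0153%). Leaving out the controls deposited under both times leaves 1 control library, so no count is given. The IL1 time difference (3 called) gave 4 with edgeR (17.2% of genes), and the IL-17A time difference (0 called) gave 1 with a pseudocount of 10 (0.253%). With shared controls entered once, 1 control library remained at 1 of the times, so no count is given.

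Leaving out 1 library at a time, the counts at 72 hours ran from 3 to 4 for IL1 and from 0 to 4 for IL-17A. The share of all genes called then ran from 16.0% to 26.1% for IL1 and from 0.0229% to 27.5% for IL-17A. In the sorted cells such a fit leaves 1 library in a group, which was taken to vary like the others. Members gained or lost calls there in GA3M2, GS4T and GA3T, and only effect sizes are given. Areg had a log2 fold change of 2.59 without GA3M2-Proximal replicate 1. Without GWTM2-Distal replicate 1, Areg in distal GA3M2 had 1.93 and Hbegf 1.12. In proximal GA3T, Nrg1 lost its call without GWTT-Proximal replicate 1, GWTT-Proximal replicate 2 or GA3T-Proximal replicate 2. In distal GA3T, Nrg1 had 3.27 and Btc 1.58 without replicate 1 of the knockout, and Nrg1 had 2.17 without replicate 2.

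Groups compared share only 2 replicate numbers. Deviations of same-numbered libraries correlated at 0.62 to 0.64 in the 12 hour comparisons and at -0.19 to 0.30 in the others. A shared deviation is thus seen at 12 hours, and the pairing is not shown elsewhere. With the replicate block, on the shared numbers alone, the count was 1 in proximal GA3M2 (5.24% of genes) and 1 in distal GA3T (0.402%). It was 2 for IL1 (11.7%) and 0 for IL-17A (0.0230%) at 72 hours. It was 6 in proximal (10.6%) and 6 in distal GS4T (15.3%), and 1 in proximal GA3T (1.65%). Counts over all genes moved too: proximal GA3T from 55 to 6 with a pseudocount of 0.1, 0 with edgeR and 969 with DESeq2, distal GA3T from 0 to 776 with DESeq2, proximal GS4M2 from 43 to 270 with DESeq2, and IL-17A at 72 hours from 1038 to 2311 with DESeq2 and 3 with the block. With the block, the counts over all genes rose from 12 to 699 in proximal GA3M2 and fell from 2998 to 1518 for IL1 at 72 hours. At 12 hours they rose from 7 to 102 for IL1 and from 5 to 117 for IL-17A, with 0 members called. The cause was not tested. Depth limits Ereg in distal goblet cells, at 1.92 to 21.1 normalized counts in the GA3M2 table.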
